A study of Mus musculus with 6 samples.

Results

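The regions described here carried a reproducible H3K4me3 peak far from every annotated transcription start site (TSS) and held no H3K4me1 peak, in B cells of the germinal center (GC) from wild-type mice. They were chosen by measured values, namely the peak calls of both marks. Peaks of 3 H3K4me3 libraries were merged, and a merged region was kept if all 3 libraries hit it, if it lay over 5 kb from the TSS of any GENCODE gene, and if it shared no base with a peak of any of 3 H3K4me1 libraries. Of 64451 merged regions, 26818 were hit in all 3 libraries, 9366 of these were distal, and 3209 of the distal regions had no H3K4me1 peak. The other 6157 distal regions and the 17452 promoter-proximal regions serve as comparison.

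Per the labels, spleens were taken on day 8 from wild-type mice given sheep red blood cells, and 50000 sorted cells went into each Mint-ChIP library. Mint-ChIP is a barcoded chromatin immunoprecipitation for small cell numbers. The labels call the cells centrocytes, which are light zone GC B cells, whereas the methods of the study speak of GC B cells, and the protocol text names an antibody against H3K27ac, whereas titles, antibody labels and methods name H3K4me1 and H3K4me3. All 6 libraries, 3 per mark, share this genotype and treatment, so no mutant group enters. Nothing in the labels says that the replicates came from separate animals, and their spread may be technical.

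H3K4me3 is the methylation state of histone H3 lysine 4 typical of active promoters, and H3K4me1 is the state typical of enhancers, where KMT2D and related enzymes place it. At CpG islands the SET1 and MLL complexes are drawn by proteins with a CXXC domain that bind CpG without methylation, so CpG-rich DNA tends to carry H3K4me3. Genes transcribed by RNA polymerase III, such as tRNA genes, can also carry H3K4me3 when active.

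H3K4me3 lists held 41936 to 46707 peaks and H3K4me1 lists 11922 to 24136 peaks, most in H3K4me1 replicate 1. The number of reads per library is not known from these lists. H3K4me3 covered a TSS of 10 of 10 B and GC B cell marker genes in every library and of 0 of 5 T cell marker genes in any. Of 5 myeloid markers, only Cd14 had such a peak, in replicate 2 alone.

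Sequences of 5 of these regions are shown to convey how unlike they are in base composition. Each is 300 bases of the plus strand of GRCm38, read from the RefSeq copy of that assembly. In the first 3, the middle of the region is given and capitals mark every CG dinucleotide. They are the member of highest rank in fold enrichment, at chr2:150311779-150312078 in 3300002I08Rik, a CpG-rich member near Foxk1 at chr5:142367677-142367976, and the member in Cd80 at chr16:38483557-38483856. In the last 2, capitals mark a tRNA gene, of lysine at chr3:96499398-96499697 on the minus strand and of glycine at chr1:171044870-171045169 on the plus strand.
rank 1: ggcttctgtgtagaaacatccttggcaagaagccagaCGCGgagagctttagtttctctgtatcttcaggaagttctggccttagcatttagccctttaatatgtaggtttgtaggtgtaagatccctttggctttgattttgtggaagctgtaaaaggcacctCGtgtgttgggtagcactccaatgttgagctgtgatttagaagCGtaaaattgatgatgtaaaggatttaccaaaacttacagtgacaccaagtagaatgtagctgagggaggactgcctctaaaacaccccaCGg
rank 6: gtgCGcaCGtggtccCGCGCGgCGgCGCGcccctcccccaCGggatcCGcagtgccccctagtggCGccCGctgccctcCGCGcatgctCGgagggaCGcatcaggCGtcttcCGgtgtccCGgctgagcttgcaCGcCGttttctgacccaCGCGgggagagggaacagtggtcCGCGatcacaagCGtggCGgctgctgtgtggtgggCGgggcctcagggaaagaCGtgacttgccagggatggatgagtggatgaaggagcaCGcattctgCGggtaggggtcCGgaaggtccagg
Cd80: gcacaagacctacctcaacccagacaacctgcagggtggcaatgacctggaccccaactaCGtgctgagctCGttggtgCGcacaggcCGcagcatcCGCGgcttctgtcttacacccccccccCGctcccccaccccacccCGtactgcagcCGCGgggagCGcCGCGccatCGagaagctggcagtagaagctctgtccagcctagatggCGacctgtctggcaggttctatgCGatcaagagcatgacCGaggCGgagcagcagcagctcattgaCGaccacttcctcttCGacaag
n-TKctt16: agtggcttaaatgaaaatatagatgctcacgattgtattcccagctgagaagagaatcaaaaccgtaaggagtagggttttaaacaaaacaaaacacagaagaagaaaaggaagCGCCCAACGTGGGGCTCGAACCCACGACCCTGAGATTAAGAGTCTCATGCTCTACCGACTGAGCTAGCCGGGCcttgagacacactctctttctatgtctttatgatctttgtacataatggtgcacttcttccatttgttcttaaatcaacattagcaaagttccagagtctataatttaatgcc
n-TGgcc4: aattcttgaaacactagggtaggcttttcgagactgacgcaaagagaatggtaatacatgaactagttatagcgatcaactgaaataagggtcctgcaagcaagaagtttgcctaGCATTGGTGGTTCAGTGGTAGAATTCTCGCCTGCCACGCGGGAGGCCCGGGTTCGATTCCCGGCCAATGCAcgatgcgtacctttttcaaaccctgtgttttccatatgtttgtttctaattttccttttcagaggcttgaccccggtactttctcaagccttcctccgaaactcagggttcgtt
The window near Foxk1 held 32 CG dinucleotides and that in Cd80 held 20, against 5 in the member ranked 1.

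Members made up 34.3% of distal regions, and the same absence of H3K4me1 was seen for 44.8% of promoter-proximal regions. The absence depended on how many H3K4me1 peaks a library held. Alone, H3K4me1 replicate 1 left 50.3% of the distal regions without a peak, replicate 2 left 65.4% and replicate 3 left 68.3%. Of the 9366 distal regions, 2789 met a peak of 1 H3K4me1 library, 2029 of 2 and only 1339 of all 3. The rule therefore marks where no H3K4me1 peak was called, which at this number of peaks does not show that the mark was absent.

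Values of the members nearest to the limits of the rule are given without a test. The 5 members nearest to the TSS limit lay 5004 to 5019 bp from a TSS and had a mean fold of 3.74 to 5.21. The 5 regions left out on the other side lay 4978 to 5000 bp away, with a mean fold of 3.97 to 6.72. The 5 members nearest to an H3K4me1 peak were 2 to 6 bp from it and had a mean fold of 3.52 to 6.48, and the 5 regions left out with the least overlap shared 3 to 8 bases and had a mean fold of 4.16 to 13.0.

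Fold enrichment, the linear ratio of signal in a peak to local background as the authors' caller gave it, was lower in members than in either comparison class. The median over members was 4.46 in replicate 1, 4.37 in replicate 2 and 4.22 in replicate 3. Distal regions with H3K4me1 had medians of 5.22, 5.01 and 4.83 in the same libraries, and promoter-proximal regions 5.996, 5.52 and 5.499. The log2 ratio of medians between members and distal regions with H3K4me1 was −0.21 ± 0.02 (SD, n = 3), lower in 3 of 3 libraries, with a two-sided p of 0.25 in an exact permutation test that flips the signs of the libraries. No smaller p can be had from 3 libraries. Against promoter-proximal regions it was −0.38 ± 0.04 (SD, n = 3), again with an exact permutation p of 0.25. Thus both differences exceeded the spread between libraries, and neither could pass a threshold of 0.05. Both differences were smaller among strong peaks. The first was within the spread between libraries at both choices of strong peaks given next, and the second only with the 10000 best peaks. With H3K4me3 peaks of −log10 q 5 or more, which left 359 members, the log2 ratios were −0.0038 ± 0.02 (SD, n = 3) and −0.09 ± 0.03 (SD, n = 3), and with the 10000 H3K4me3 peaks of highest −log10 q per library, which left 164 members, they were 0.01 ± 0.03 (SD, n = 3) and −0.02 ± 0.04 (SD, n = 3).

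**Figure D1:**
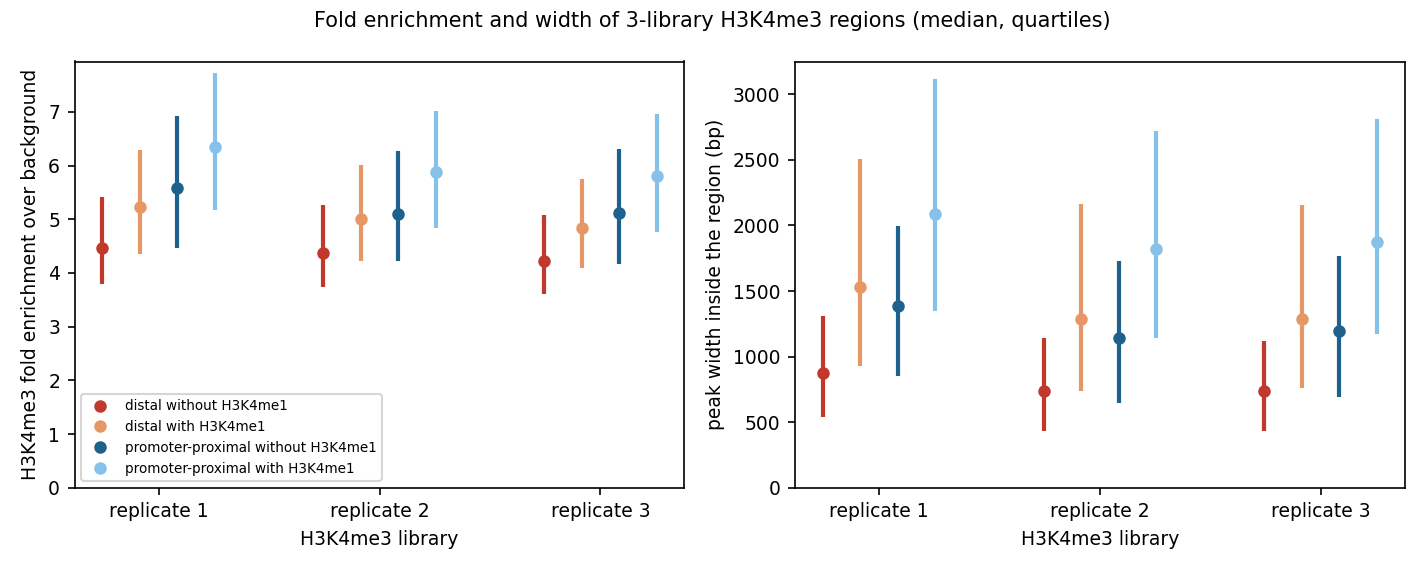
Median (points) and quartiles (lines) of H3K4me3 fold enrichment (left) and of peak width in bp inside each region (right), per H3K4me3 library and class of region. Distal regions without H3K4me1 (dark red) have the lowest medians of the 4 classes in every library, between 4.22 and 4.46 in fold and between 735 and 874 bp in width.

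Within each library the members spread over the whole range of fold. Between 15.5% and 16.4% of them fell in the top 25% of all peaks of a library, and between 13.3% and 20.7% in the lowest 25%. In the top 25% of all 3 libraries stood 188 members, or 5.86%, and 893 distal regions with H3K4me1, or 14.5%. Members kept part of their order between libraries, since Pearson's r of fold over the 3209 members was 0.552 to 0.568 and Spearman's rho 0.486 to 0.502. These are descriptions over regions that share libraries.

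Members were narrow. The median peak width inside a member was 874 bp in replicate 1, 740 bp in replicate 2 and 735 bp in replicate 3, against 1531, 1288 and 1287 bp in distal regions with H3K4me1. Merged over libraries, members were 233 to 5241 bp wide, with a median of 1218 bp, and distal regions with H3K4me1 reached 20399 bp. Width was not independent of the rule, because a wider region has more room to meet a peak, and it was given no test. When all distal regions were divided into 5 classes of merged width of about equal number, a split added after the data were seen, the share without H3K4me1 was 56.4% in the narrowest class, 46.2%, 36.8% and 24.0% in the next, and 7.91% in the widest.

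The lower fold of members was also seen within classes of width. Widths were not matched inside a class, and the widest class ran from 2761 to 20399 bp, whereas no member exceeded 5241 bp. The mean log2 ratio of median fold, without against with H3K4me1, was −0.09 ± 0.04 (SD, n = 3) in the narrowest class and −0.17 ± 0.01 (SD, n = 3) in the widest. It was below 0 in each of 3 libraries in every class. The difference was thus smaller within every width class than the −0.21 over all distal regions.

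**Figure D2:**
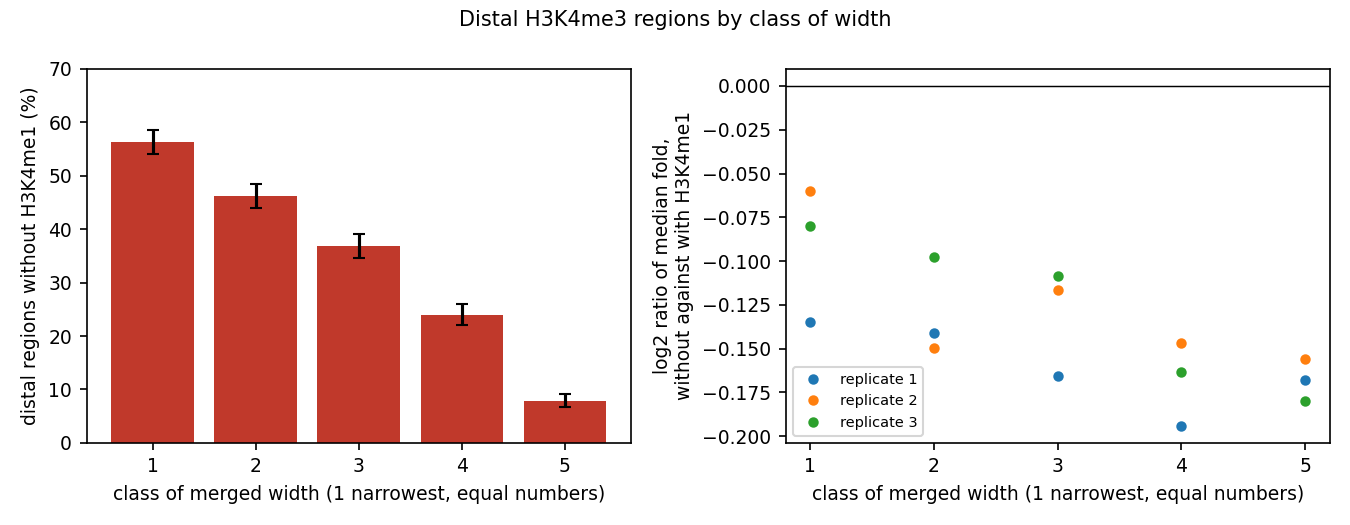
Share of distal H3K4me3 regions without H3K4me1 in percent with 95% Wilson intervals (left) and log2 ratio of median fold, without against with H3K4me1, in each library (right), by class of merged width. The share falls from 56.4% to 7.91% with width, and all points of the right panel lie below 0.

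The members of highest rank in fold are described next. Rank was set by the lowest of the 3 within-library percentiles of fold, so a high rank requires a high fold in every library. First was the region at chr2:150310781-150313077, 2297 bp wide, in 3300002I08Rik, with a fold of 12.1, 10.96 and 10.2 in replicates 1, 2 and 3. It lay 5.02 kb from the TSS of Gm14125, just past the TSS limit of the rule. Second was an intergenic region at chr13:80927538-80928653, 37.0 kb from the TSS of Arrdc3, a member of the alpha-arrestin family, with a fold of 10.9, 14.2 and 13.0. The nearest H3K4me1 peak was 616 kb away from this second region, and 7.69 kb away from the first. The third, at chr5:125465304-125466175, was 872 bp wide and had a fold of 14.8, 12.8 and 9.48. It lay 5.32 kb from the TSS of Gm43756 and 9.64 kb from Aacs, which encodes acetoacetyl-CoA synthetase. The fourth lay 5.09 kb from Sfpq, a splicing factor gene, near the TSS limit of the rule, and had a fold of 12.6, 8.99 and 10.1.

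Of the ranks from 5 to 10, Napepld held the fifth in an intron, with a fold of 9.71, 12.1 and 9.43. Napepld encodes a phospholipase that makes N-acylethanolamines. The sixth, 32.3 kb from Foxk1, a forkhead factor gene, was 2747 bp wide and had a fold of 9.52, 9.33 and 9.99, and its centre was the CpG-rich window printed above, with 69.3% G and C. The eighth overlapped an exon of Acer2, an alkaline ceramidase gene, with a fold of 9.35, 9.31 and 8.76. The seventh on X, the ninth on chromosome 13 and the tenth, 20.2 kb from Arhgap15, were intergenic with folds between 8.36 and 11.5. Among the 10, the values of a region in 3 libraries lay within a factor of 1.56 of each other in every case, a closeness that the choice by rank favours.

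Width picked out other members. The 5 with the greatest width in their narrowest library covered at least 3420 bp in each library. One of them, at chr14:54229865-54234402, lay between Trac, the T cell receptor alpha constant gene, and Dad1, 9.34 kb and 19.5 kb from their TSSs, with a fold of 6.95, 5.41 and 5.31. Another overlapped an exon of Elf4, an ETS factor gene on X, at chrX:48424239-48429479, with a fold of 4.52, 5.11 and 5.08. The third, at chr11:3100462-3104732, had a fold of only 1.84, 2.04 and 1.95. It was among 3 members whose fold was under 3 in every library. The remaining 2 lay 7.12 kb from Poli and 8.15 kb from Gm23667, with folds between 4.23 and 5.11.

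Introns held 1247 members, or 38.9%, exons were touched by 358, or 11.2%, and 1604, or 49.98%, lay between genes. Among distal regions with H3K4me1 the shares were 48.4%, 12.9% and 38.7%. The Wilson 95% intervals for the intergenic share, 48.3% to 51.7% for members and 37.4% to 39.9% for the comparison, did not overlap. Such intervals cover counting error only. Members were about as far from a TSS as the comparison, with a median of 14.9 kb against 14.2 kb.

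The distance from a member to the nearest H3K4me1 peak had a median of 10.3 kb, with quartiles of 3.30 and 29.7 kb. Within 1 kb of a member such a peak was found for 259, or 8.07%, and within 5 kb for 1069, or 33.3%. No H3K4me1 peak lay within 50 kb of 478 members, or 14.9%. Members also had a distal H3K4me3 region with H3K4me1 nearby less often than such regions had another. Such a region lay within 12.5 kb of 891 members, or 27.8%, whereas 46.1% of distal regions with H3K4me1 had another of their kind within this distance. This difference is not independent of the rule, which splits the distal regions by H3K4me1 peaks, and it was given no test.

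Members were richer in CpG than other distal regions and poorer than promoters. The median CpG observed/expected ratio in the middle 300 bases was 0.269 in members, 0.212 in distal regions with H3K4me1, 0.560 in promoter-proximal regions without H3K4me1 and 0.378 in those with it. Above a ratio of 0.6, here called CpG rich, were 279 members, or 8.69%, with a Wilson 95% interval of 7.77% to 9.72%. The share was 2.92% in distal regions with H3K4me1 and 26.2% in all regions hit in 3 libraries. It was 8.45% to 9.46% of members and 2.49% to 3.37% of the comparison across the 5 width classes. Mostly soft-masked windows were about as common in members, at 8.04%, as in distal regions with H3K4me1, at 9.01%.

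**Figure D3:**
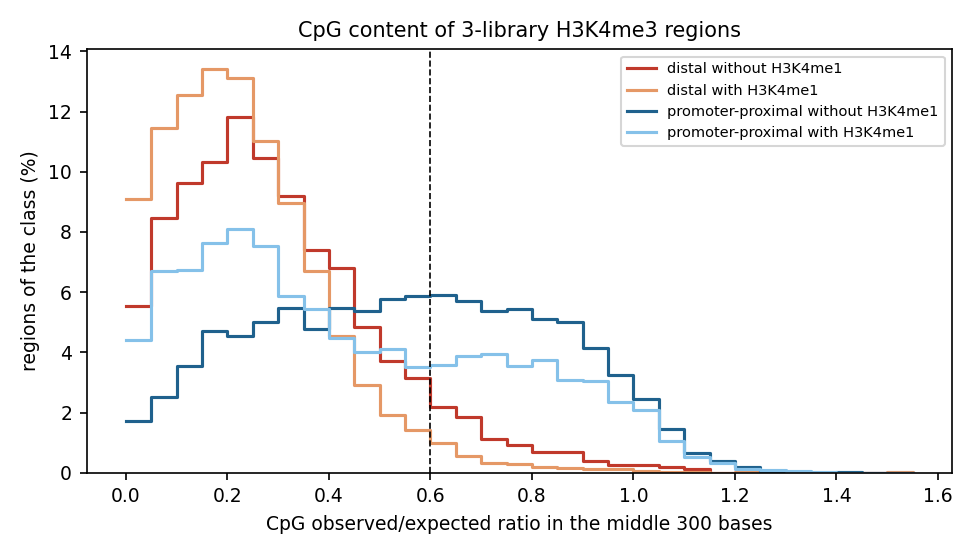
Distribution of the CpG observed/expected ratio in the middle 300 bases, in percent of the regions of each of 4 classes, with a dashed line at 0.6. Most members (dark red) lie at low ratios, and 8.69% lie beyond the line, against 2.92% of distal regions with H3K4me1.

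The CpG-rich members had a higher fold than the other members. Their median fold was 5.06, 4.84 and 4.77 in replicates 1, 2 and 3, against 4.405, 4.32 and 4.18 in the other 2930. They lay between genes more often, at 61.6% against 48.9%, and farther from H3K4me1, at a median of 19.8 kb against 9.79 kb. CpG-rich distal regions with H3K4me1 also had a higher fold than the rest of their class, 5.86, 5.47 and 5.22 against 5.21, 4.998 and 4.82.

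Short letter motifs of B cell and promoter factors were searched on both strands of the same windows. GGGCGG, the GC box of SP1, was in 9.78% of members, 5.68% of distal regions with H3K4me1, 21.4% of all regions hit in 3 libraries and 35.7% of 32851 RefSeq promoters of 300 bases. CCGGAAG, an ETS core that contains a CG, was in 3.65% and 1.72% of the distal classes, 5.19% of all regions and 8.86% of promoters. CAGGGGGC, a core of the CTCF site, was in 1.71% and 0.991%, and in 1.80% of all regions and 2.87% of promoters. These 3 motifs were more frequent in members than in the distal comparison and less frequent than in all regions.

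Most motifs of B cell factors were at like shares in both distal classes. GAGGAAG, an ETS site of the PU.1 type, was in 16.2% of members and 15.7% of the distal comparison, and GAANNGAAA, an ETS-IRF composite, in 15.2% and 14.3%. ATTTGCAT, the octamer bound by OCT2 and OCT1, was in 4.89% and 4.43%. All regions held these 3 at 14.3%, 10.9% and 2.92%, and promoters at 13.6%, 7.52% and 1.74%, so the last 2 were more frequent in both distal classes than in promoters. CAGCTG, an E-box, was in 18.1% and 15.9% of the distal classes, 16.2% of all regions and 16.3% of promoters, and GGGANTTCC, of NF-kB, in 1.99%, 1.27%, 1.51% and 1.68%. These 2 were more frequent in members than in the distal comparison, all regions or promoters, and GGGANTTCC was in only 64 members. TGTGGTT of RUNX was in 9.19% and 9.23%, with 6.92% and 5.27% in all regions and promoters, and TGANTCA of AP-1 in 10.1% and 10.4%, with 8.11% and 7.81%. CCAATCA of NFY was in 3.02% and 3.20%, with 3.63% and 7.82%, and TATAAAAG in 1.25% and 1.46%, with 1.08% and 1.70%. GGGCGG can lie inside longer CG-rich runs, and GAGGAAG can overlap the composite. A match is a run of letters and not a bound site, and a window without one lacks only these letters.

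A small group of members held a tRNA gene. RefSeq tRNA genes were not counted as TSSs by the rule, since the GENCODE annotation used lists only mitochondrial ones, and they were looked up after the data were seen. A tRNA gene lay in 33 members, or 1.03% with an exact 95% interval of 0.709% to 1.44%. The share was 0.357% in distal regions with H3K4me1, 0.461% and 0.498% in promoter-proximal regions without and with it, and 0.518% over all regions hit in 3 libraries. Of 403 tRNA genes, 46 were in members, 42 in distal regions with H3K4me1 and 170 in no region hit in 3 libraries. Promoter-proximal regions without and with H3K4me1 held 57 and 88. On chromosome 13, 16 of the 33 members lay between 21.2 and 23.5 Mb. The interval above takes members as independent and covers counting error only.

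Members with a tRNA gene were wider and stronger than the others. Their median fold was 6.20, 5.47 and 5.53 in replicates 1, 2 and 3, against 4.45, 4.35 and 4.21, and their median width 1688, 1550 and 1464 bp against 869.5, 734 and 729 bp. In the top 25% of fold in all 3 libraries were 12 of 33, against 176 of 3176. The member of highest rank among them, chr3:96499359-96503526, held 4 tRNA genes, of lysine (n-TKctt16, printed above), histidine, glycine and glutamate, with a fold of 10.1, 8.19 and 8.46. The region of n-TGgcc4 at chr1:171043765-171045755, 12.3 kb from Fcgr3, had a fold of 8.26, 8.83 and 10.5. The n-TMcat16 region on chromosome 15 had a fold of 8.97, 7.73 and 7.50, and that of n-TLtag1, 5.22 kb from Eef2k, a fold of 8.28, 7.28 and 7.42.

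Starts of RefSeq transcripts not in the GENCODE set were about as frequent in both distal classes. Such a start lay within 1 kb of 187 members, or 5.83%, with an exact interval of 5.04% to 6.69%, and of 6.16% of distal regions with H3K4me1. Most belonged to long noncoding RNAs, with 132 members or 4.11%, and 50 members, or 1.56%, were near the start of an mRNA model.

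Copies of mRNA sequence were rare. In 17 members, or 0.530%, the middle window matched a coding gene's mRNA from another place over at least 150 bases at 80% identity or more. The share was 0.292% in distal regions with H3K4me1, and 1.18% and 0.716% in promoter-proximal regions without and with H3K4me1. Of the 17 windows in members, 9 were CpG rich. The window in Cd80 printed above was one of them and matched Ckb, the brain creatine kinase gene, over 300 bases at 88% identity. Its region had a fold of 8.61, 8.10 and 7.67, in the top 25% of each library.

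In gene bodies, 1114 of 21951 protein-coding genes, or 5.07%, hosted a member, and 1424 members had such a host. Of the hosts, 884 held 1 member and 76 held at least 3. H3K4me3 covered a TSS of 67.7% of hosts and of 49.7% of all protein-coding genes. A distal region with H3K4me1 was present in 47.4% of hosts and in 8.15% of all protein-coding genes, so that many hosts held both kinds. Long genes hold more regions by their length, and counts are therefore given per Mb too.

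The most members were counted in the 2.96 Mb model of Fgfr2, a fibroblast growth factor receptor gene, with 11 members and no H3K4me3 over a TSS. The model spans chr7:130162451-133123350. Apart from the member at chr7:130827633-130829456, all lay between 132335073 and 132766280. The count rests on this annotated span, and whether these members belong to the receptor gene was not tested. Their folds ran from 3.16 to 5.11 in replicate 1, from 3.30 to 7.59 in replicate 2 and from 3.09 to 5.76 in replicate 3, and 14 distal regions with H3K4me1 stood beside them. Prkce, a protein kinase C gene, held 8, Immp2l 7 and the 4.43 Mb model Gm20388 7. Ldlrad4, Sh3kbp1 and Lpp held 6 each, Atxn1 and Foxp1 5 each. Sh3kbp1 encodes an adaptor of receptor endocytosis on X, and its 6 members spanned 1119 to 4486 bp in width.

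Per length of gene, Cass4 had the most members with 75.1 per Mb from 3 regions, followed by Smad1 with 65.4 per Mb from 4 regions. Smad1 encodes a transducer of bone morphogenetic protein signals, and its TSS carried no H3K4me3. Its first member, chr8:79369881-79371653, had a fold of 6.37, 6.17 and 5.57, and the last, 25.2 kb from any H3K4me1 peak, a fold of 5.31, 3.71 and 4.25. The other two were at 3.01, 3.495 and 5.77 and at 3.38, 4.61 and 3.72. B4galt1, a galactosyltransferase gene, had 60.7 per Mb, and Rab6b 54.4 per Mb, both with 3 or 4 members. Saysd1, Rassf3, Adam18, Fam49a, Stk24 and Cuedc1 had 31.2 to 47.7 per Mb. Saysd1, Fam49a and Cuedc1 held no distal region with H3K4me1.

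Genes of B cell identity and B cell receptor signalling held more members per Mb than all protein-coding genes. This was not particular to them, since T cell genes held 5.57 per Mb and myeloid and erythroid genes 2.92 per Mb. In the 2 B cell lists, members were a lower share of the distal regions than in all protein-coding genes. Over all protein-coding genes there were 1.37 members and 3.28 distal regions with H3K4me1 per Mb, and members were 29.5% of the distal regions counted. Of 20 B and GC B cell transcription factors, 4 hosted 12 members, 4.04 per Mb, beside 86 regions with H3K4me1, 29.0 per Mb. Members were 12.2% of these. They lay in Foxp1 with 5, Ebf1 with 3, and Etv6 and Bach2 with 2 each. Ebf1 encodes a factor of B cell commitment, and its member at chr11:45006849-45008237 had a fold of 4.60, 8.25 and 5.18. Foxp1 encodes a forkhead repressor, and its member at chr6:99130636-99132177 had 4.30, 6.11 and 5.85. Bach2, a repressor of plasma cell differentiation, had a member 5.74 kb from a TSS with 3.40, 4.06 and 5.43, which rested on a width of 1977, 946 and 896 bp. The other members in Foxp1, Ebf1 and Bach2 had a lower fold in replicate 3, but some had a higher fold in replicate 1 or 2. The second in Bach2 had 2.87, 4.99 and 2.96, at percentiles 0.814 and 1.23 of fold in replicates 1 and 3. One in Ebf1 had 4.66, 3.42 and 4.36. The lowest fold in Foxp1 was 3.93 in replicate 1, and a different member had the lowest in replicates 2 and 3, at 3.19 and 3.16.

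Among 20 genes of B cell receptor signalling, 5 hosted 6 members, 2.61 per Mb, beside 41 regions with H3K4me1. Inpp5d, the SHIP1 phosphatase gene, held 2, and Lyn, a Src family kinase gene, Rasgrp3, Prkcb and the adaptor gene Blnk held 1 each. The member in Rasgrp3 was 3787 bp wide with a fold of 5.08, 5.24 and 4.10, and lay 425 bp from an H3K4me1 peak. That in Blnk had 4.497, 4.92 and 3.998. Of 12 genes of GC positioning, 0 hosted a member, and 6 regions with H3K4me1 lay in them. For 10 histone modifiers mutated in lymphoma the counts were 0 and 8. With 5.07% of all protein-coding genes as hosts, nothing can be read from 0 in lists of this size.

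Of 12 genes named in the study, 3 hosted 5 members, beside 14 regions with H3K4me1. Zbtb20, a zinc finger repressor gene, held 3, with folds of 3.77, 4.17 and 5.67, of 5.33, 3.69 and 3.12, and of 3.16, 3.43 and 3.35 in replicates 1, 2 and 3. Stat3, which encodes the transducer of IL21 and IL10 signals, held 1, at chr11:100930290-100932782, with a fold of 7.32, 6.18 and 6.70, and no distal region with H3K4me1 was in this gene. Cd86, a costimulatory ligand gene of centrocytes, held 1 with 4.05, 3.49 and 4.77, only 44 bp from an H3K4me1 peak. Cd80, the related ligand gene, was the single host among 14 genes of antigen presentation and T cell help, and Zbtb38 among 8 plasma cell genes, with a fold of 7.15, 6.23 and 5.49 in a member 225 bp from an H3K4me1 peak.

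Genes of other cell types also hosted members. Of 20 T cell genes, 4 hosted 5 members, 5.57 per Mb, beside 2 regions with H3K4me1. Members were 71.4% of these distal regions, against 29.5% over all protein-coding genes. Cd28, Lef1 and Cd6 held 1 each. The member in Lef1, which encodes a factor of the Wnt pathway, had a fold of 5.50, 6.06 and 5.25 in replicates 1, 2 and 3. That in Cd28, a costimulatory receptor gene, had 6.21, 3.55 and 3.39. Of 18 myeloid and erythroid genes, Mrc1 and Ank1 held 1 member each, 2.92 per Mb. Of 20 long neuronal genes, 4 held 5 members, only 0.183 per Mb. H3K4me3 was over a TSS of 6 of the 20 T cell genes, 2 of the myeloid and erythroid and 2 of the neuronal genes. As given above, 0 of 5 T cell marker genes had H3K4me3 over a TSS in any library. The part of other cells in these members was not tested, and the counts per list are small.

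**Figure D4:**
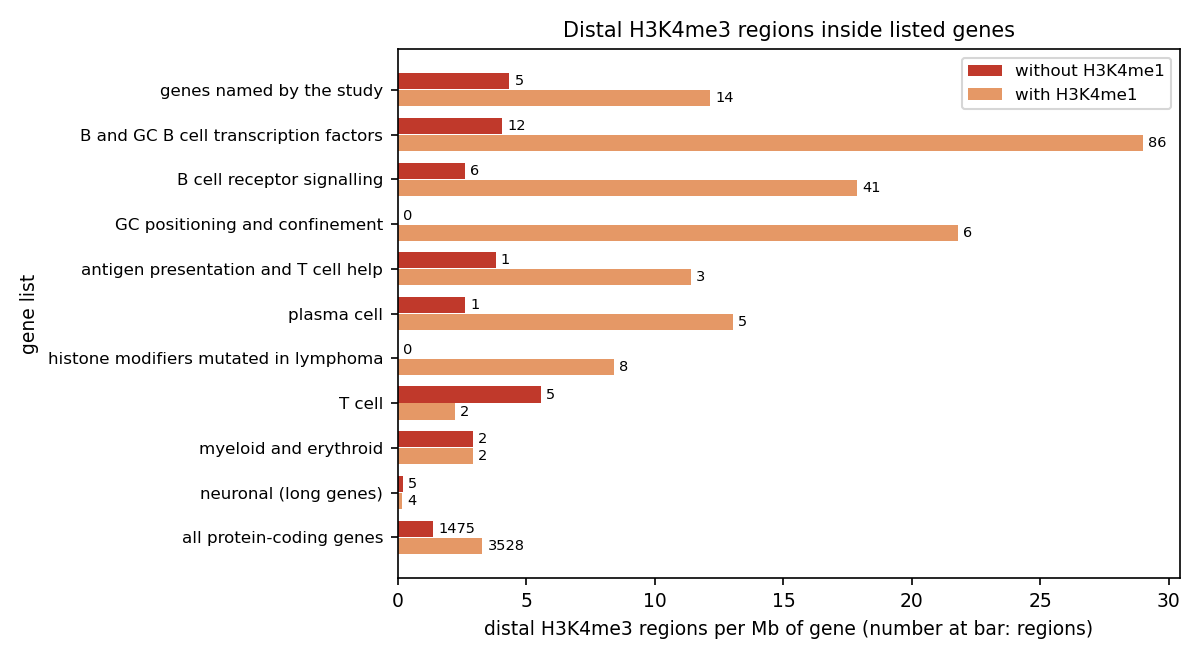
Distal H3K4me3 regions per Mb of gene body in 10 gene lists and in all protein-coding genes, without H3K4me1 (dark red) and with it (orange), with the number of regions at each bar. In B and GC B cell transcription factors 12 regions without stand beside 86 with H3K4me1, and in T cell genes 5 beside 2.

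Chromosome X differed from every autosome. Of its 186 distal regions, 127 were members, or 68.3% with a Wilson 95% interval of 61.3% to 74.5%, against 33.6% on all autosomes and 30.3% to 38.9% on single autosomes. The promoter-proximal regions of X showed it too, with 79.9% of 403 regions without H3K4me1 against 43.9% on the autosomes. The density of members was not high on X, at 0.743 per Mb against 0.889 to 2.02 on autosomes. Peaks of both marks were sparse there. H3K4me1 peaks per Mb on X were 12.4%, 12.4% and 10.8% of the autosomal density in replicates 1, 2 and 3, and H3K4me3 peaks 38.2%, 37.5% and 38.1%. Members on X had a median fold of 4.21, 4.19 and 4.01, against 4.48, 4.37 and 4.23 on autosomes, and a similar width, 1197 against 1219 bp. The most frequent nearest genes of X members were Firre, a long noncoding RNA gene, for 8, and Sh3kbp1 for 6. Each list also held 4 to 10 peaks on Y. A filter on X or Y in alignment or calling, and the sex of the mice of these libraries, are not given in the sources used here, and what sets X apart was not tested.

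**Figure D5:**
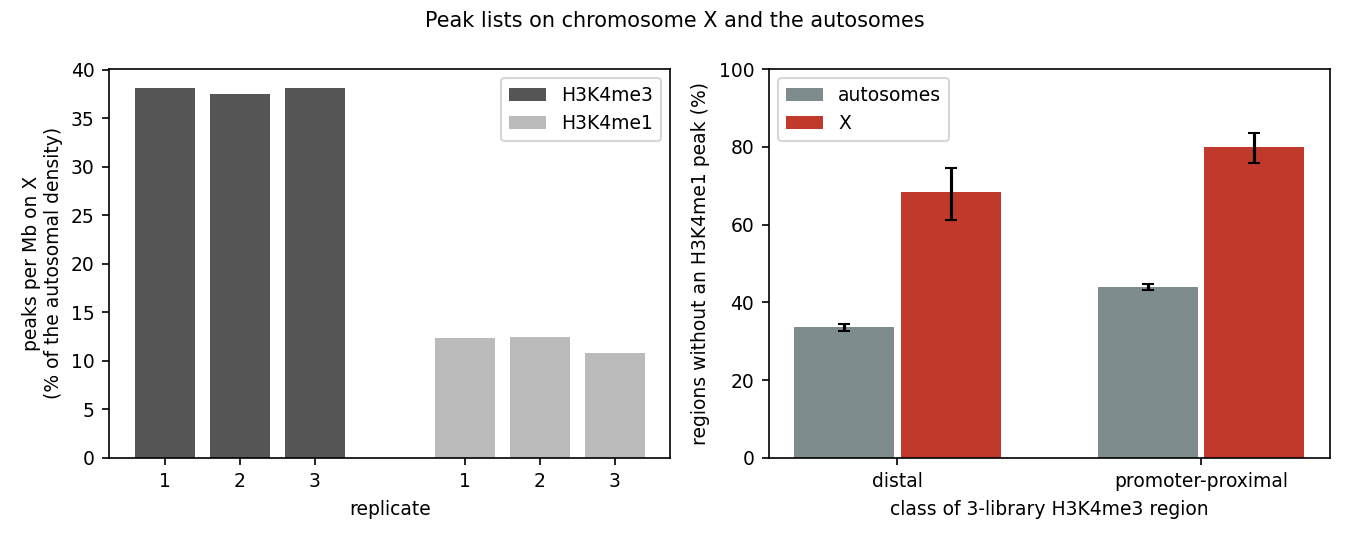
Peaks per Mb on chromosome X in percent of the autosomal density for each library of both marks (left), and share of H3K4me3 regions without an H3K4me1 peak on autosomes and X with 95% Wilson intervals (right). H3K4me1 stands at 10.8% to 12.4% and H3K4me3 at 37.5% to 38.2% on the left, and the X shares are 68.3% and 79.9% on the right.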

How the data were processed

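Peak lists of 6 Mint-ChIP libraries were used, 3 per mark. Each library has its own list, as called by the authors. Per the labels their processing named BWA, Picard, HOMER and Genrich and the build mm10, without versions or roles, while the file layout is that of MACS2. Caller version, settings and control were not given in the sources used here. The deposited fold enrichment is a linear ratio to local background. The deposited −log10 p-value and −log10 q-value stand beside it, and the lowest −log10 q was 1.02 to 1.14 for H3K4me3 and 1.31 to 1.32 for H3K4me1. The deposited score, derived from the q-value, was not used.

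Coordinates were read as GRCm38, and 0 peaks lay past a chromosome end. Peaks sharing at least 1 base were merged. Distance ran from region edge to the nearest of 132758 TSSs of GENCODE M21. Fold per region and library was the highest of its peaks, and width the sum of its peaks. Sequence, promoters, tRNA genes and RefSeq starts came from RefSeq GRCm38.p6. mRNA matches were found with blastn 2.17.0 against GENCODE transcripts, leaving out genes within 5 kb. Class differences in fold were tested over libraries with exact sign-flip permutation tests, and interval code was tested on simulated data. Python 3.11.15, numpy 2.4.6, pandas 2.3.3 and scipy 1.17.1 were used.

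The members, gene lists and motifs were chosen with earlier results of these data known. tRNA genes, RefSeq starts, mRNA matches, width classes, the 12.5 kb distance and the split by chromosome were added after the data were seen. Members were named if among the 10 of highest rank in fold, the 5 widest, in the 10 hosts with most members or most per Mb, or in listed genes, up to 4 per list. The tRNA regions, the mRNA matches, Firre and the fifth gene of B cell receptor signalling were named outside this rule, after their values were seen. 1 listed gene and 1 sequence are not reported here.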

Additional observations from a re-analysis of the deposited data

How the results depend on the processing

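Each of 9 results was recomputed under 17 alternatives chosen at the outset and, added after the data were seen, without chromosome X, which left 3082 members and moved no share, median or ratio beyond its error. The direction of the fold ratios, whose tests cannot pass 0.05 in any setting, changed in 1 of the alternatives, but their size fell with both choices of stronger H3K4me3 peaks. With a −log10 q of 5 or more there were 359 members, 18.3% of distal regions, 1051 bp wide at the median, with 29.2% in introns, 60.2% between genes, a CpG ratio of 0.391 and a log2 width ratio of −0.80. The log2 fold ratio was then −0.0038 to distal regions with H3K4me1 and −0.09 to promoter-proximal regions. With the 10000 best peaks there were 164 members, 17.4% of distal regions, 1073 bp wide, with 24.4% in introns, 64.6% between genes, a CpG ratio of 0.413 and a log2 width ratio of −0.65, and the log2 fold ratio to distal regions with H3K4me1 changed sign to 0.015, with −0.02 to promoter-proximal regions. In the other 16 alternatives the fold ratios were −0.26 to −0.20 and −0.44 to −0.32. The largest change of the share came with H3K4me1 regions of 2 or more libraries only, where there were 6653 members, 71.0% of distal regions, with values of 950.3 bp, 42.3%, 45.8%, 0.244 and −0.86 in the same order. With H3K4me3 in 2 or more libraries there were 5714 members, 44.2% of distal regions, 647 bp wide, 41.7% in introns, with a CpG ratio of 0.251 and a log2 width ratio of −0.95. The share of distal regions was 37.7% with H3K4me1 peaks of −log10 q 2 or more, 31.5% with no H3K4me1 peak within 1 kb (log2 width −0.79), and 35.3% where at least 50% of an H3K4me1 peak had to lie inside (−0.82). A TSS distance of 1 kb gave 46.3% between genes and a log2 width ratio of −0.79, and 10 kb gave 52.3%. With protein-coding TSSs only, 45.6% lay between genes and 34.5% in introns, with a CpG ratio of 0.283 and a log2 width ratio of −0.81. Distance from the middle gave −0.85.

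Leaving out 1 library of either mark gave 3766 to 4779 members, a share of 37.3% to 51.0%, widths of 697 to 869 bp, 39.5% to 41.2% in introns, 47.1% to 49.3% between genes, a CpG ratio of 0.255 to 0.264 and a log2 width ratio of −0.90 to −0.78. The highest count came without H3K4me1 replicate 1, the list with most peaks. With 2 libraries the smallest sign-flip p is 0.5. No paired analysis was possible because no test was made between the marks, which are the groups that share replicate numbers. The fold tests already take differences inside each H3K4me3 library. Depth could not be read from the lists, and absence of an H3K4me1 peak is limited by the 11922 to 24136 peaks called.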

Other observations

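Members were spread over all chromosomes, from 0.743 per Mb on X to 2.02 per Mb on chromosome 11, which also had the most distal regions with H3K4me1, 3.46 per Mb. Their share of distal regions was 38.9% on chromosome 8, the highest of the autosomes, and 30.3% on chromosome 1, the lowest.

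Some members matched the mRNA of a gene elsewhere besides the one in Cd80. A member at chr16:59458860-59459683 matched Orai2, a calcium channel gene, over 300 bases at 97.7% identity and had a fold of 4.15, 8.20 and 4.63. Members at chr8:20549724-20550890 and chr8:19979514-19980884 both matched Nsfl1c, with folds of 6.51, 5.84 and 5.46 and of 5.87, 5.05 and 7.30. Their CpG ratios were 0.884 and 0.837, so both were CpG rich. Reads from such copies can be hard to place, and how the aligner's multiple matches were handled is not given in the sources used here.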
